A study of Mus musculus with 6 samples.

Results

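The genes described here encode the nuclear subunits of the mitochondrial respiratory chain and of ATP synthase, together with both cytochrome c genes and several complex I assembly factors. A gene was included when a probe set that names 1 gene on the array carried a symbol beginning with Ndufa, Ndufb, Ndufc, Ndufs, Ndufv, Uqcr, Cox4 to Cox8 or Atp5, or was Sdha, Sdhb, Sdhc, Sdhd, Cycs or Cyct. The rule gave 92 genes of the 18193 that such probe sets name. They comprise 36 subunit genes of complex I (NADH dehydrogenase), 8 complex I assembly factors (Ndufaf genes), 4 subunits of complex II (succinate dehydrogenase), 8 of complex III (cytochrome bc1), 17 of complex IV (cytochrome c oxidase), 17 of complex V (ATP synthase) and 2 cytochromes c. One probe set stood for each gene, the one with the highest mean log2 signal over the 4 shRNA arrays.

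The samples were elongating spermatids, the germ cells that follow meiosis and reshape into sperm, from male ICR mice (an outbred strain, labelled wildtype and adult). The mice were 5 weeks old when their testes received a lentiviral vector with GFP, and GFP+ cells were sorted out 1 week later. The 3 groups differ in the vector, which was shMiwi:GFP (a short hairpin RNA named for Miwi, the PIWI protein Piwil1), shCaf1:GFP (named for Caf1, taken here to be the deadenylase Cnot7) or pSilencer:GFP as the control. All groups share lentiviral transduction, GFP and sorting. Each group held 2 arrays labelled as biological replicates. The number of animals behind an array is not given in the sources used here, so every p-value measures only the spread between these arrays. The comparisons address which transcripts differ in spermatids when Miwi or Caf1 is targeted. Values are Affymetrix MAS5 signals, a linear intensity per probe set, and differences are of log2(signal + 16), which understates changes of dim probe sets.

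The respiratory chain passes electrons from NADH and succinate through complexes I to IV to oxygen, with cytochrome c as the mobile carrier between complexes III and IV, and ATP synthase uses the resulting proton gradient. In late spermatids the mitochondria gather around the flagellum as the mitochondrial sheath of the midpiece. Germ cells use isoforms of several subunits that somatic tissues lack or express little, among them Cyct (testis cytochrome c), Cox6b2, Cox7b2 and Cox8c, while Cox4i2, Cox6a2, Cox7a1 and Cox8b are isoforms known from lung, muscle or heart.

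Promoter sequences of RefSeq genes (build GRCm38.p6, 250 bases before the start of transcription) were matched to 76 of the 92 genes, which have 81 annotated promoters. The 4 printed here are the testis and the body-wide form of cytochrome c and of complex IV subunit 6b, because the isoform ratios given further on are between these pairs. Capitals mark matches on either strand to 3 sets of letters. These are GCGCATGC, the core bound by the nuclear respiratory factor NRF1, CGGAAG, the core bound by GABPA (NRF2), and TGACGTCA, the cyclic AMP response element. The positions are chr2:76360454-76360703 for Cyct, chr6:50566570-50566819 for Cycs, chr7:4753095-4753344 for Cox6b2 and chr7:30626115-30626364 for Cox6b1, all on the minus strand and written 5′ to 3′.
Cyct: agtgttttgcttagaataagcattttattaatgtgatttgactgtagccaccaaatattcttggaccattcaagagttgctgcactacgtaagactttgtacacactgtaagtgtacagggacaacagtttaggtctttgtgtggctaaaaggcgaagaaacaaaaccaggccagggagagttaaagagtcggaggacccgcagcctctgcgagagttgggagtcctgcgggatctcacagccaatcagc
Cycs: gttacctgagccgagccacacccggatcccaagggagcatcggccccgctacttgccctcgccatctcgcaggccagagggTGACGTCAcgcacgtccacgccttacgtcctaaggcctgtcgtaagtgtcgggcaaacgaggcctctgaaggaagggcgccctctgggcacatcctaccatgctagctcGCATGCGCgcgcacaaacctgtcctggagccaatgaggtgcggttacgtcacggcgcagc
Cox6b2: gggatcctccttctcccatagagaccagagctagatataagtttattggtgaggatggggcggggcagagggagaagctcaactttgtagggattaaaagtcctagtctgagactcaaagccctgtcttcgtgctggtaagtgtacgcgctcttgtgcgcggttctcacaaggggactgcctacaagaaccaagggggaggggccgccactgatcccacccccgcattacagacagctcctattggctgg
Cox6b1: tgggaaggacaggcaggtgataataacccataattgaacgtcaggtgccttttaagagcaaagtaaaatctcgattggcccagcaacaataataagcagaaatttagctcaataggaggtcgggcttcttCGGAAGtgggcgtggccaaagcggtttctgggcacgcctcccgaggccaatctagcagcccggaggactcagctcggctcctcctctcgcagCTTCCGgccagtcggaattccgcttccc
The Cycs window held a cyclic AMP response element whose first base lies 169 bases before the start and an NRF1 core at 60 bases, and the Cox6b1 window held GABPA cores at 120 and 28 bases. In Cyct and Cox6b2 these letters were not found in this window, nor were they in that of the testis gene Cox7b2 or of the body-wide genes Cox8a, Cox5b and Ndufa4. Over all 81 promoters of the 92 genes, 11.1% held the NRF1 core, 35.8% the GABPA core and 4.94% the cyclic AMP response element. Over all 32851 mouse promoters of the same length the shares were 2.26%, 13.6% and 1.55%. These are matches of letters, not measured binding sites.

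The arrays of the control group stood apart from the others. The correlation across 27022 probe sets was 0.983 for the shCaf1 pair, 0.982 for the shMiwi pair and 0.451 for the control pair (Pearson's r). Hybridization control probes, which detect RNA added in a fixed amount, read 81.4-fold the shRNA mean on control 1, 16.05-fold on control 2, and between 0.797-fold and 1.19-fold on the shRNA arrays. The array labelled control 1 went against its label as elongating spermatids, since 14 markers of these cells (Prm1, Tnp1, Odf1 and others) had a median percentile of 35.2 there, against 99.4 on control 2 and 99.0 to 99.7 on the shRNA arrays. Each marker was read from its gene's brightest probe set on the 4 shRNA arrays, which favours high ranks there. For 9 pachytene spermatocyte markers the median was 28.7 on control 1, 56.7 on control 2 and 97.5 to 98.4 on the shRNA arrays. For 4 Leydig cell markers it was 54.5, 89.2 and 95.5 to 96.5 in the same order. For 8 Sertoli cell markers it was 74.8, 84.2 and 79.9 to 84.0. For 8 round spermatid markers it was 24.9, 87.1 and 96.9 to 98.2, and for 6 macrophage markers 64.9, 76.7 and 78.3 to 79.6. For 5 peritubular myoid markers it was 35.2, 47.1 and 65.8 to 73.0, and for 6 endothelial markers 62.6, 69.6 and 52.7 to 57.8. Pachytene, round spermatid and Leydig cell markers thus also ranked high on the shRNA arrays, while endothelial markers had a lower median there than on either control array. Piwil1, the gene named in shMiwi, was lower in shMiwi than in shCaf1 by a log2 difference of -1.14 (SE 0.10, limma adjusted p = 0.00132), and Cnot7 differed by 0.24 (adjusted p = 0.304). Against control, Piwil1 differed by -6.01 in shMiwi and -4.87 in shCaf1, and Cnot7 by -7.03 and -7.27. All of these passed at a limma adjusted p under 0.05. Scaled to the hybridization controls, the differences were -0.62 and 0.12 for Piwil1 and -1.65 and -2.28 for Cnot7. Fewer cells of one type and less RNA per cell cannot be told apart in these bulk samples.

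On the shRNA arrays most of the chosen probe sets ranked high. Each had been chosen as its gene's brightest on these 4 arrays, so the high ranks there are in part fixed by the choice and are given as a description. The median percentile of the 92 genes within an array, where the brightest probe set lies at 100, was 96.4 and 96.1 in shCaf1 and 96.3 and 96.7 in shMiwi. It was 96.9 on control 2 but 74.1 on control 1. Between 71 and 74 of the 92 genes lay above the 90th percentile on each shRNA array, 68 on control 2 and 33 on control 1. The replicates of a group were close, with a median absolute log2 difference between arrays of 0.11 for shCaf1 and 0.15 for shMiwi, but 2.63 between the control arrays. These ranks compare the same probe sets across arrays and do not order the genes by abundance, since probe sets differ in brightness.

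**Figure D1:**
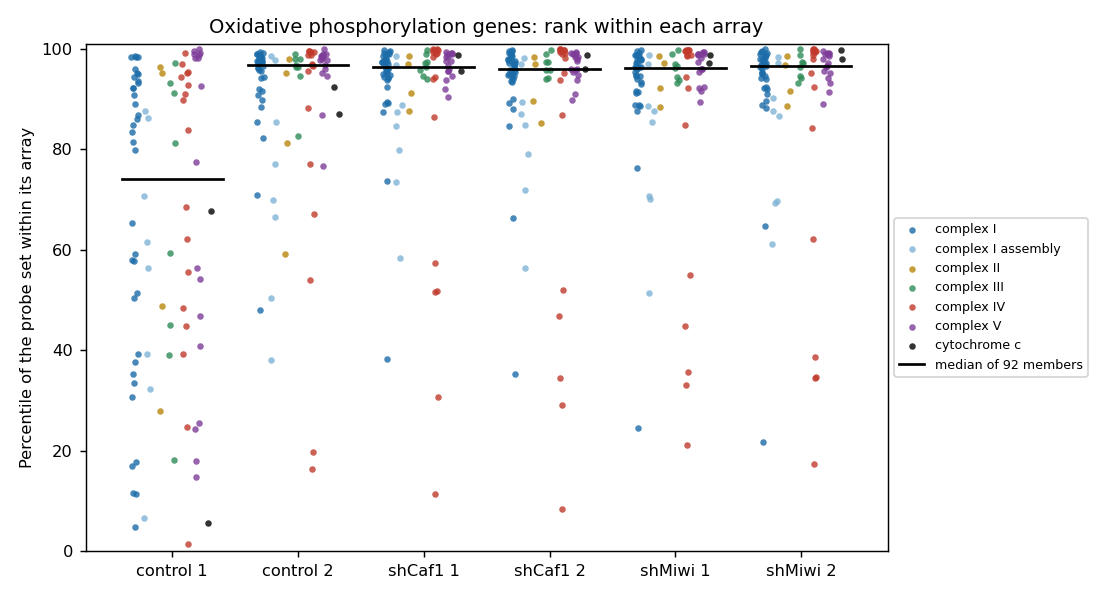
Percentile (y axis, 0 to 100) of each of the 92 genes' probe sets within each array (x axis), coloured by complex, with a black bar at the median. The median lies at 74.1 on control 1 and between 96.1 and 96.9 on the other arrays, and the few low points on the shRNA arrays are mostly complex IV isoforms.

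Each complex had members with high signals on all 4 shRNA arrays. Ndufc1, a complex I subunit, read 20548 and 21905 in shCaf1 and 17911 and 19990 in shMiwi. Uqcrb, a complex III subunit, read 17818 and 20500 against 15416 and 18520. Cox5a, a complex IV subunit, read 22617 and 26215 against 18799 and 19183. On control 1 these probe sets read 44.2, 64.4 and 18.8, and on control 2 they read 14970, 4288 and 37262. Control 1 thus lay below the shRNA range for all 3 genes, and control 2 lay below it for Ndufc1 and Uqcrb and above it for Cox5a. Atp5pb, a stalk subunit of ATP synthase, read 11900 and 12965 in shCaf1 and 11986 and 13153 in shMiwi, and Sdhb, the iron-sulfur subunit of complex II, read 9400 and 8945 against 7980 and 8505. The values of shMiwi and shCaf1 overlapped for Atp5pb and for Uqcrb, and not for the other 3 genes.

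Through their chosen probe sets, the testis isoforms ranked high on all shRNA arrays, and the lung, muscle and heart isoforms ranked low. Cyct read 10562 and 11205 in shCaf1 and 9086 and 15153 in shMiwi, with 29.6 on control 1 and 986 on control 2. Its values overlapped between the shRNA groups, and both control arrays lay below all of them. Cox8c, a testis form of complex IV subunit 8, read 14597 and 14393 in shCaf1, 13047 and 11598 in shMiwi, and 1985 and 16176 in control. A second, dimmer Cox8c probe set read 309 and 158 in shCaf1, 202 and 110 in shMiwi, and 1732 and 1654 in control. Cox7b2, the testis relative of Cox7b, read 10666 and 12272, then 9179 and 12546, with 87.9 and 546 in control. Cox6b2, the testis form of subunit 6b, read 8820 and 8534, then 8409 and 7100, with 490 and 5183 in control. The chosen probe sets of these 4 genes lay above the 98th percentile on every shRNA array. By contrast, Cox4i2 lay between the 34.5th and 51.6th percentiles there, Cox6a2 between 34.6 and 57.3, Cox7a1 between 51.8 and 62.1 and Cox8b between 8.32 and 21.1. Cox4i2 read 86.3 and 35.9 in shCaf1 and 39.0 and 40.1 in shMiwi, but 1516 and 1102 in control, and Cox8b read 1343 on control 1 and 37.3 or less on the other 5 arrays.

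**Figure D2:**
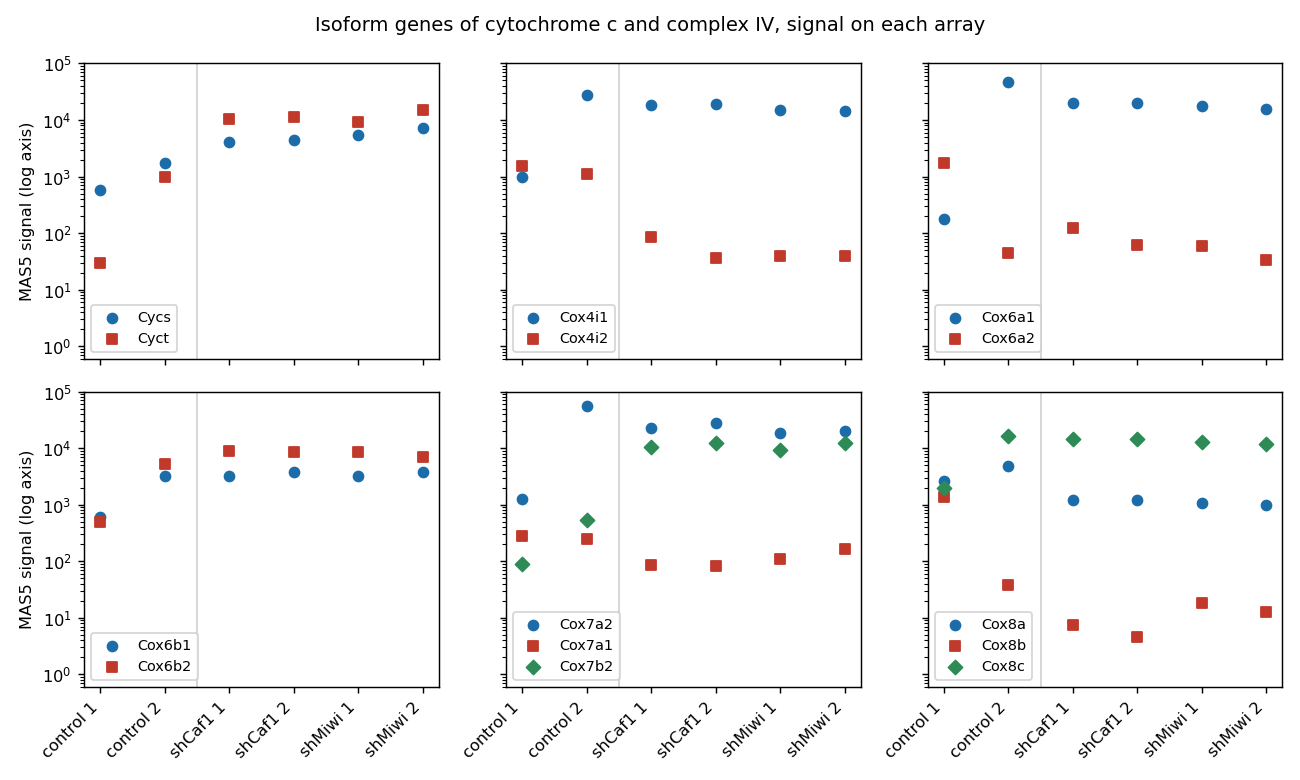
MAS5 signal (y axis, log scale) of body-wide and tissue isoform genes on each of the 6 arrays (x axis), 1 panel per protein and 1 point per array. Cyct, Cox6b2, Cox7b2 and Cox8c lie close together over the 4 shRNA arrays, while the control arrays spread widely; heights of different genes in a panel come from different probe sets and are not compared.

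Between the shRNA groups, the body-wide cytochrome c gene read higher in shMiwi on all 3 of its tested probe sets, while the testis gene overlapped. Cycs read 4079 and 4523 in shCaf1 and 5395 and 7120 in shMiwi, with no overlap, a log2 difference of 0.53 (SE 0.14, limma adjusted p = 0.0626), which did not pass. The other tested Cycs probe sets passed, with differences of 0.67 (adjusted p = 0.0417) and 0.64 (adjusted p = 0.0443). For Cyct the difference was 0.11 (SE 0.20, adjusted p = 0.786), and it was -0.26 without shMiwi array 2 (adjusted p = 0.293) and 0.48 without shMiwi array 1 (adjusted p = 0.0380). On the scale of the hybridization controls both genes passed, with 0.92 for Cycs and 0.51 for Cyct, where 27.5% of all probe sets were called. The log2 ratio of Cyct to Cycs within an array, which depends little on how the array was scaled, was 1.37 and 1.31 in shCaf1 and 0.75 and 1.09 in shMiwi. The ratio was thus lower in shMiwi by 0.42 with no overlap, and an exact test of 2 arrays against 2 cannot give a two-sided p below 0.333.

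For complex IV, the within-array ratios of the testis to the body-wide isoforms overlapped between the shRNA groups. The log2 ratio of Cox8c to Cox8a, from their chosen probe sets, was 3.59 and 3.55 in shCaf1 and 3.59 and 3.53 in shMiwi, a difference of -0.01. The ratio of Cox6b2 to Cox6b1 was 1.46 and 1.19, then 1.41 and 0.89, and overlapped. Cox7a1 over Cox7a2 was -7.80 and -8.13 in shCaf1 and -7.23 and -6.79 in shMiwi, higher by 0.95 without overlap, although Cox7a1 itself was dim and its difference of 0.57 did not pass (adjusted p = 0.238). Among the genes for the ATP synthase c subunit, Atp5g1 over Atp5g3 overlapped and Atp5g2 over Atp5g3 was higher in shMiwi by 0.22 without overlap. Of the 18 isoform genes, 17 were tested and 0 passed through the probe set that stood for them, while 6 had an unadjusted p under 0.05 (limma). In the same fit 6654 of all 27022 probe sets had an unadjusted p under 0.05.

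The comparison of shMiwi with shCaf1 was the one in which replicates were close, and in it 2 members rose and 5 fell. Of 89 members tested, 2.25% rose and 5.62% fell, beside 3.70% and 3.39% of all 27022 probe sets, so the members were called about as often as the array as a whole. In limma on the 4 shRNA arrays, 6 members were higher and 24 lower at an unadjusted p under 0.05. In the same fit 6654 of all 27022 probe sets reached that level in either direction. The differences of the 89 tested members, called or not, leaned one way on the deposited scale. Of these differences, 64 lay below 0 (71.9%, beside 47.6% of all probe sets). Both shMiwi arrays lay below both shCaf1 arrays for 47 members (52.8%, beside 24.97% of all probe sets). Both lay above for 14 members (15.7%, beside 29.51% of all probe sets). The median difference was -0.16, beside 0.02 for all probe sets. On the scale of the hybridization controls the direction turned, since the median of all probe sets moved to 0.39 and that of the members to 0.24, with 12 of 89 below 0. Relative to the array-wide median the members lay at -0.18 on the deposited scale, -0.15 on the hybridization scale and -0.03 after quantile normalization. Among the 4504 probe sets above the 90th percentile of mean signal, a group described after the values were seen, the median was -0.06 with 57.5% below 0, and for the 73 members in it the median was -0.16 with 76.7% below 0. After quantile normalization the shares below 0 were 48.6% and 54.8%, and on the hybridization scale 14.7% and 12.3%.

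**Figure D3:**
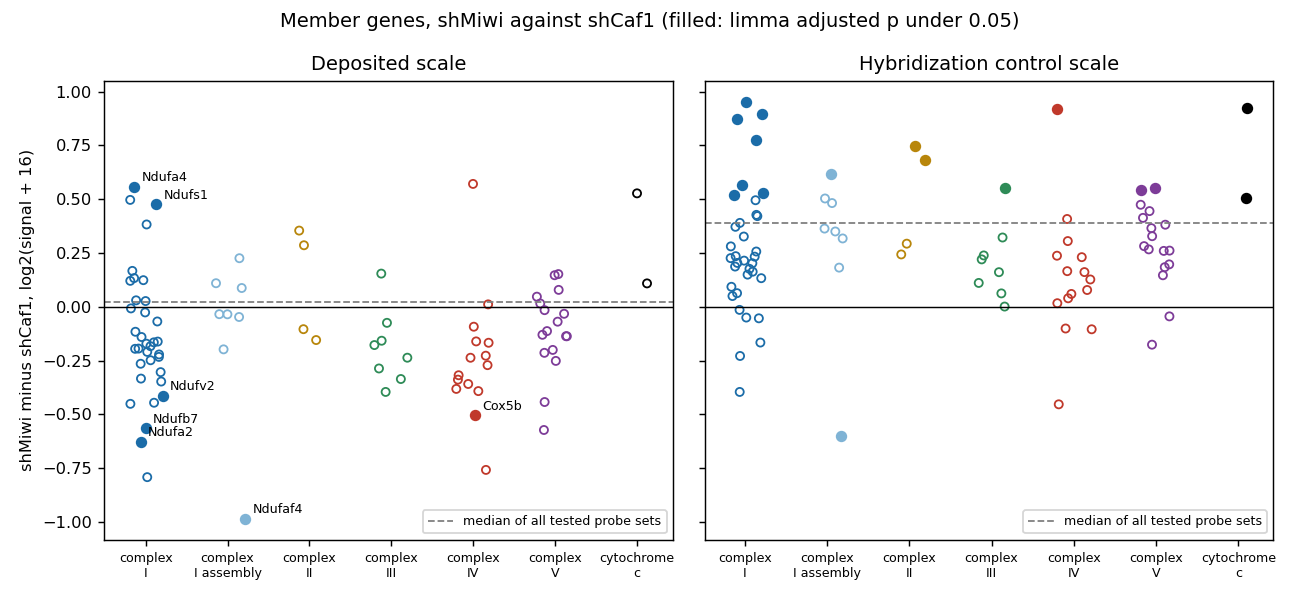
Difference of shMiwi minus shCaf1 in log2(signal + 16) (y axis) for each tested member by complex (x axis), on the deposited scale (left) and the hybridization control scale (right), 1 point per gene, filled where the limma adjusted p is under 0.05. On the left the 7 filled points are 2 rises and 5 falls around a dashed array-wide median of 0.02. On the right that median is 0.39, and 16 rises and 1 fall are filled. Of all 27022 probe sets 7162 were called higher and 261 lower on that scale.

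Of the complex I genes, 25 of 35 had a difference below 0, 3 fell and 2 rose. Ndufa2, an accessory subunit, read 14163 and 17819 in shCaf1 and 8953 and 11816 in shMiwi, and Ndufb7, another accessory subunit, read 6429 and 7157 against 4253 and 4944. Ndufv2, an iron-sulfur subunit of the arm that takes electrons from NADH, read 10801 and 11825 against 8244 and 8744. All of these shMiwi values lay below the shCaf1 values. Ndufa2 fell by 0.63 (SE 0.16, limma adjusted p = 0.0473), Ndufb7 by 0.56 (SE 0.12, adjusted p = 0.0325) and Ndufv2 by 0.41 (SE 0.10, adjusted p = 0.0484). Ndufs1, the largest iron-sulfur subunit of complex I, went the other way, reading 3423 and 3603 in shCaf1 and 4657 and 5152 in shMiwi. It rose by 0.48 (SE 0.11, adjusted p = 0.0419), or 1.39-fold. Ndufa4, named as a complex I subunit and now placed in complex IV, read 1601 and 1373 against 2089 and 2297 and rose by 0.56 (SE 0.13, adjusted p = 0.0432). Other probe sets of Ndufv2 gave -0.09 and -0.43 and the other of Ndufb7 -0.42, and these 3 did not pass.

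On the deposited scale the largest difference among the tested members was that of an assembly factor. On the hybridization scale several members lay farther from 0 than it did, among them Ndufa4 (0.95), Cycs (0.92), Ndufs1 (0.88) and another assembly factor (0.62). Ndufaf4, which helps to build complex I, read 660 and 600 in shCaf1 and 329 and 292 in shMiwi, with 32.2 and 416 in control. Both shMiwi arrays lay below both shCaf1 arrays. Ndufaf4 fell by 0.99 (SE 0.16, limma adjusted p = 0.0158), or 1.98-fold, and by 0.60 on the hybridization scale, where it was the 1 member called lower. A second, dimmer Ndufaf4 probe set read 79.8 and 102 against 114 and 132, a difference of 0.38 (adjusted p = 0.396), so the probe sets of this gene disagree. On the deposited scale the other 7 assembly factors lay between -0.20 and 0.23 and none of them passed. Ndufs4, an accessory subunit of complex I chosen here after its values were seen, read 3115 and 3196 against 1394 and 2365 (-0.79, limma adjusted p = 0.0601). A dimmer probe set of it passed (-0.98, adjusted p = 0.0251). The dimmest tested one read 108 and 61.7 against 94.0 and 90.6 and had the other sign (0.14, adjusted p = 0.819).

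In complex IV, 13 of 15 tested genes were below 0 and Cox5b fell. Cox5b, a nuclear-encoded subunit, read 12595 and 13682 in shCaf1 and 9002 and 9533 in shMiwi, a fall of 0.50 (SE 0.10, limma adjusted p = 0.0282) or 1.42-fold, without overlap. Another Cox5b probe set also passed (-0.46, adjusted p = 0.0328) and 2 more had differences of -0.37 and -0.38 that did not. The body-wide genes Cox4i1 and Cox7a2 had differences of -0.34 (adjusted p = 0.0692) and -0.38 (adjusted p = 0.0729), which did not pass and turned to 0.060 and 0.017 on the hybridization scale. In complex III, 7 of 8 genes were below 0, in complex V 12 of 17 and in complex II 2 of 4, and no gene of these 3 complexes passed. At an unadjusted p under 0.05 in limma, 2 genes of complex III, 3 of complex V and 1 of complex II differed, beside 6654 of all 27022 probe sets. Among 47 members with several tested probe sets, all probe sets had 1 sign for 31 and both signs for 16.

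The 7 calls depended on the spread that was assumed. Their signs held under quantile, median and hybridization scaling, but on the hybridization scale 4 of the falls lost their call and shrank to -0.23 for Ndufa2, -0.17 for Ndufb7, -0.10 for Cox5b and -0.01 for Ndufv2. With all 6 arrays in 1 limma fit 0 members were called (0 at an unadjusted p under 0.05), as were 0 of all 27022 probe sets. Without the intensity trend 0 members were called (15 at an unadjusted p under 0.05), and of all probe sets 2 were called higher and 14 lower. The calls also changed with the array left out, among the members and over all probe sets. Leaving out shCaf1 array 1 or 2, the members' median difference was -0.15 or -0.14, beside 0.04 or -0.0014 for all probe sets. Leaving out shMiwi array 1 or 2, it was -0.11 or -0.19, beside -0.01 or 0.07. In these fits the lone array of a group is assumed to vary like the other group, so their calls are not counted here.

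Markers of other stages and cell types moved in the same comparison. Of the 14 elongating spermatid markers 12 fell in shMiwi against shCaf1, all 14 were below 0, and their median difference was -0.71. Their summed signal was 232228 and 252295 in shCaf1 and 161773 and 154575 in shMiwi. On the hybridization scale 3 of them were called lower, leaving out 1 array at a time gave between 4 and 11, and without the filter 7 were called. Without the intensity trend and with all 6 arrays in the limma fit 0 were called, with 12 and 0 at an unadjusted p under 0.05. Of 8 round spermatid markers 3 fell (median -0.40), of 9 pachytene spermatocyte markers 0 were called (median 0.12, with 3 at an unadjusted p under 0.05), and 2 of 5 peritubular myoid, 2 of 7 Sertoli and 1 of 4 Leydig cell markers rose. Of 6 macrophage markers 1 fell, and of 5 endothelial markers 0 were called (limma, 0 at an unadjusted p under 0.05). The part of these shifts in the members' differences was not tested.

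Of the other mitochondrial gene lists, that of carriers and sheath genes held most of the calls. Over all probe sets 7.09% were called, and 6654 of 27022 had an unadjusted p under 0.05 (limma). Of 33 tested assembly and other respiratory chain genes outside the rule (Cyc1, Sco1, Surf1 and others) 0 were called in limma, 10 had an unadjusted p under 0.05, and 15 were below 0, with a median of 0.03. Of 18 pyruvate dehydrogenase and citric acid cycle genes 0 were called, 4 had an unadjusted p under 0.05, and 6 were below 0, with a median of 0.06. Among 16 genes of mitochondrial carriers and of the mitochondrial sheath, 1 rose and 3 fell. Slc25a4, the ADP/ATP carrier of heart and muscle, rose by a log2 difference of 0.43 (adjusted p = 0.0481). Spata18, a regulator of mitochondrial quality, fell by 1.23, Smcp, the cysteine-rich protein of the sheath and also one of the spermatid markers, fell by 0.72, and Gpx4, the selenoprotein of the sheath, fell by 0.39. On the hybridization scale the Gpx4 difference was 0.01. Of 12 regulators of mitochondrial DNA and biogenesis 1 rose, the mitochondrial RNA polymerase Polrmt, by 0.50 (adjusted p = 0.0414).

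Against control, members moved both ways, and the values rest on which control array is used. In shMiwi 11 members rose and 7 fell of 90 tested, beside 16.9% and 26.4% of all probe sets, and in shCaf1 10 rose and 8 fell, beside 15.5% and 26.0% (limma on 6 arrays, adjusted p under 0.05). The 2 comparisons share the control arrays. The median difference was 1.20 in shMiwi and 1.41 in shCaf1, beside -0.20 and -0.25 for all probe sets. The probe set of each gene was chosen for brightness on the shRNA arrays, which favours rises here. Without control 1 the median difference of the members was -0.36 in shMiwi and -0.16 in shCaf1, beside -0.36 and -0.35 for all probe sets. Without control 2 the members' median was 2.60 in shMiwi and 2.73 in shCaf1, beside -0.31 and -0.37 for all probe sets. Leaving out shMiwi array 1 or 2, the members' median in shMiwi was 1.24 or 1.20, beside -0.26 or -0.15 for all probe sets. Leaving out shCaf1 array 1 or 2, the members' median in shCaf1 was 1.39 or 1.44, beside -0.27 or -0.21. The calls, of members and of all probe sets, depended on which shRNA array was left out, and a lone array gives its group no spread of its own.

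The largest rises were those of Atp5pb, Cyct and Cox7b2. Atp5pb read 53.3 and 542 in control and at least 11900 on every shRNA array, higher by 5.999 in shMiwi (SE 0.99, limma adjusted p = 0.00898) and 5.98 in shCaf1 (adjusted p = 0.00987). A second Atp5pb probe set read 2159 and 1962 in control and gave 1.44 (adjusted p = 0.0285) and 1.06 (adjusted p = 0.0694, not passing). Cyct was higher by 5.78 (SE 1.44, adjusted p = 0.0265) and 5.67 (adjusted p = 0.0293), and Cox7b2 by 5.48 (SE 0.84, adjusted p = 0.00775) and 5.57 (adjusted p = 0.00838). For all 3 genes both control arrays lay below all shRNA arrays, although control 2 lay closer. For Cyct the log2 difference of shMiwi was 8.01 from control 1 and 3.55 from control 2. The chosen Cycs probe set also rose, by 2.59 in shMiwi (adjusted p = 0.0230) and 2.06 in shCaf1 (adjusted p = 0.0461). Of the other tested Cycs probe sets, one gave 4.71 and 4.07 (adjusted p = 0.00374 and 0.00499), and the other 0.67 (adjusted p = 0.389) and -0.0014 (adjusted p = 0.998). The log2 ratio of Cyct to Cycs within an array was -3.72 on control 1 and -0.84 on control 2, below its values of 0.75 to 1.37 on the shRNA arrays. The same arrays differed in their cell type markers, read from probe sets chosen for brightness on the shRNA arrays. In shMiwi against control, 8 of 9 pachytene, 4 of 8 round spermatid and 1 of 14 elongating spermatid markers rose. So did 3 of 4 Leydig, 2 of 8 Sertoli, 2 of 6 macrophage and 2 of 5 peritubular myoid markers, beside 16.9% of all probe sets. Falls were called for 2 of 8 Sertoli, 1 of 5 peritubular myoid and 2 of 5 endothelial markers, beside 26.4%. The part of these differences in the members' rises was not tested.

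The largest falls were those of Atp5g3, Cox4i2 and Cox7c. Atp5g3, 1 of 3 genes for the ATP synthase c subunit, read 617182 and 245589 in control, 12119 and 11842 in shCaf1 and 11328 and 10482 in shMiwi. It fell by 5.16 in shMiwi (SE 0.61, limma adjusted p = 0.00533) and by 5.02 in shCaf1 (adjusted p = 0.00635), and on the hybridization scale the differences were 0.23 and -0.03. Cox4i2, a complex IV isoform known from lung, fell by 4.56 and 4.17, with 0.20 and 0.30 on the hybridization scale. The chosen Cox7c probe set was dim, reading 386 and 380 in control and 27.9 to 34.7 on the shRNA arrays, and it had differences of -2.998 and -3.115 that passed. On the hybridization scale 87 members were called higher than control and 0 lower in both comparisons, and 25395 (shMiwi) and 24717 (shCaf1) of all 27022 probe sets were called higher too. Of the falls measured on both scales 6 of 6 in shMiwi and 6 of 7 in shCaf1 turned positive, as did 5930 of 6065 and 5817 of 5962 over all probe sets. Atp5g3 in shCaf1 was the exception, and Cox7c was not tested on that scale.

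Set against each control array alone, the members split. Against control 1, 74 of 92 members were higher in shMiwi and 73 in shCaf1, with medians of 2.58 and 2.66. The medians of all 45037 probe sets, taken here without the filter, were -1.32 and -1.34. Against control 2, 39 and 40 of 92 were higher, with medians of -0.40 and -0.16. The medians of the 45037 unfiltered probe sets were -0.89 and -0.87. Over the 27022 filtered probe sets, without control 1, the medians were -0.36 and -0.35, beside -0.36 and -0.16 for the tested members. Cox5a in shMiwi lay 9.09 above control 1, while its difference from control 2 was -0.97. Cox6a1 was likewise above control 1 and below control 2, with signals of 177 and 47620 in control and 15557 to 20239 on the shRNA arrays.

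**Figure D4:**
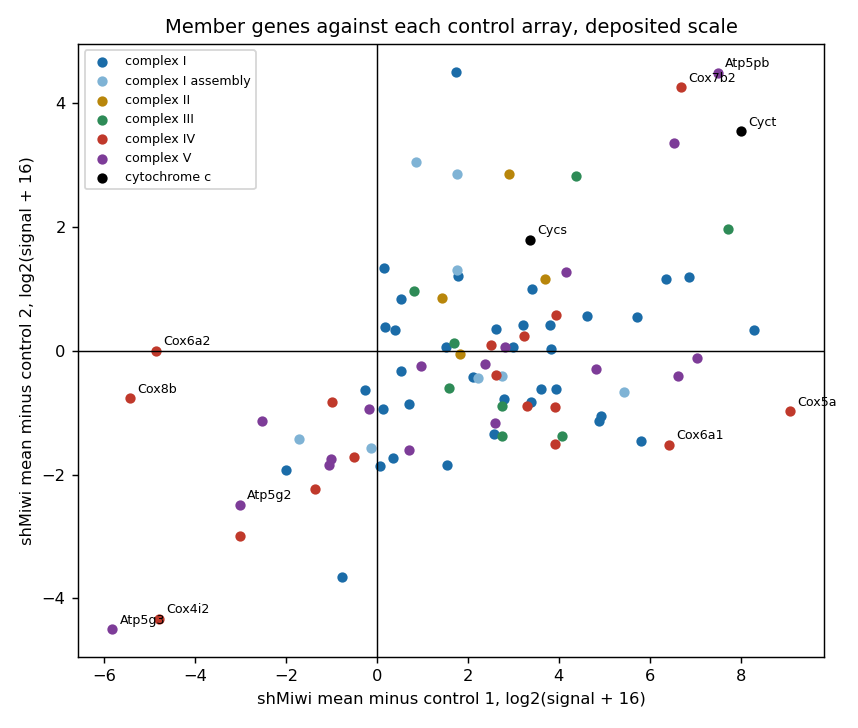
Difference of the shMiwi mean from control 1 (x axis) and from control 2 (y axis) in log2(signal + 16) on the deposited scale, 1 point per member, coloured by complex. Most points lie right of 0 on the x axis (74 of 92) but are split on the y axis (39 above 0), and Atp5pb, Cyct and Cox7b2 lie high on both axes.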

How the data were processed

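The authors' deposited values are MAS5 signal intensities on a linear scale for 45101 probe sets on 6 arrays, with a 2% trimmed mean of 500 on each; MAS5 is named in the submitters' processing notes, and its version, detection calls and a genome build are not given in the sources used here. RNA was amplified with a 3' IVT kit, per the labels' protocols. Signals were taken to log2 after adding 16, and tests used the 27022 probe sets, outside the 64 controls, whose mean exceeded the 40th percentile. The number of arrays limits the precision.

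Groups and replicate numbers come from the sample titles. limma 3.58.1 in R 4.3.3 (lmFit, eBayes with an intensity trend) compared shMiwi with shCaf1 on the 4 shRNA arrays (2 residual degrees of freedom) and each with control on all 6 (3 residual degrees of freedom, the groups sharing 1 spread), with Benjamini-Hochberg adjustment over all tested probe sets and calls at an adjusted p under 0.05; the fits were tested on simulated data. Of the 92 members, Cox8b and Ndufb4 were not tested in any comparison and Cox7c not between the shRNA groups, being under the filter. The members have 184 single-gene probe sets, and 10 that name several genes were left out. Gene names come from the platform annotation, and all 92 gene identifiers were found in the RefSeq table (GRCm38.p6). Named genes are the isoform sets, called members between the shRNA groups, the 2 brightest per complex, the top 3 per direction against control, and up to 2 called genes per direction of each pathway list; Gpx4, Ndufs4 and the values of single other probe sets were added after they were seen. The members and lists were chosen with earlier results of these data known. Alternatives changed the scaling (quantile, median, 18 hybridization control probe sets), the added constant, the filter, the variance model, a replicate block, the arrays fitted and the probe set.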

Additional observations from a re-analysis of the deposited data

How the results depend on the processing

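Adding 1 or 64 in place of 16 moved no count of called members by more than 1.5 times; the main counts were 2 higher and 5 lower (shMiwi against shCaf1), 11 and 7 (shMiwi against control) and 10 and 8 (shCaf1 against control). Between the shRNA groups, members called higher and lower numbered 0 and 1 with median centring, beside 749 and 520 of all probe sets. They numbered 16 and 1 on the hybridization scale, beside 7162 and 261 of all 27022 probe sets. Counts were 0 and 1 without the filter, beside 269 and 299 of 45037 probe sets. They were 0 and 0 without the intensity trend, beside 2 and 14 of all probe sets. With all 6 arrays fitted they were 0 and 0, beside 0 and 0 (limma). After quantile normalization 3 and 3 were called, beside 880 and 1011 of all probe sets. With probe sets chosen over all 6 arrays 2 and 3 were called, beside 1000 and 916. With 1 array left out, the members' median difference ran from -0.19 to -0.11, beside -0.01 to 0.07 for all probe sets. Against control, median centring gave 25 and 3 in shMiwi, beside 9836 and 2834 of all probe sets, and 25 and 4 in shCaf1, beside 9314 and 2580. The hybridization scale gave 87 and 0 for both, beside 25395 and 24, and 24717 and 9. With only the 4 arrays compared, counts were 5 and 4 for both, beside 2544 and 5386, and 2255 and 5036. After quantile normalization 7 (shMiwi) and 6 (shCaf1) were higher, beside 5510 and 5273. When any probe set of a gene counted, 16 and 17 were lower, beside 7128 and 7019. Leaving out 1 array gave 0 to 69 higher and 0 to 43 lower in shMiwi, and 0 to 71 and 0 to 42 in shCaf1. With the replicate number as a block, 5 members were higher and 22 lower between the shRNA groups, beside 2936 and 2456 of all probe sets. Against control 9 and 7 were called in shMiwi, beside 3981 and 6419, and 8 and 6 in shCaf1, beside 3602 and 6249. Deviations of same-numbered arrays correlated at 0.061, 0.0040 and 0.18, not all above 0.1, so the numbers were not taken to pair the samples. On the hybridization scale, 52 members turned from below to above 0 between the shRNA groups, and 21 and 18 against control. Of the genes named by rule, those turning between the shRNA groups, none of which had passed, were Atp5g1 0.28, Atp5g3 0.26, Cox4i1 0.060, Cox6a1 0.13, Cox6b2 0.23, Cox7a2 0.017, Cox7a2l 0.078, Cox7b2 0.31, Cox8a 0.17 and Cox8c 0.16, and after quantile normalization Atp5g3 0.074, Cox6a1 0.013, Cox7b2 0.14 and Cox8c 0.0090. Leaving out 1 array, Atp5g2 ran from -0.030 to 0.19, Cox4i2 from -0.88 to 0.097, Cox6b1 from -0.13 to 0.15, Cox7b2 from -0.32 to 0.13 and Cyct from -0.26 to 0.48. Among the 3 largest falls and the targeted genes against control on the hybridization scale, Atp5g3 was 0.23 and Cox4i2 0.20 in shMiwi, and Cox4i2 was 0.30 and Piwil1 0.12 in shCaf1. The cause of these changes was not tested. With 2 arrays per group, the spread rests on 2 or 3 residual degrees of freedom.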
